A study of Mus musculus with 9 samples.

Results

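The interferon response genes described here were 40 genes that mouse cells are known to induce when they sense interferon, and they were taken by gene name. A probe set, the group of short oligonucleotides that reads one transcript on an Affymetrix array, was counted where the annotation gave it a single gene symbol, current or older, and that symbol was on the list. In all, 38 of the 40 genes had a probe set of their own, and these 38 genes held 60 of the 45101 probe sets of the array. The probe set of Isg15 also named another gene and none was listed for Ifi44, so neither gene is reported. Of the 38 measured genes, 26 reached a signal over 500 on at least 1 array and were tested, and 12 did not.

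RNA came from mouse ovarian surface epithelial (MOSE) cells of C57BL6 mice that transformed spontaneously in culture, hybridised to 9 whole-genome mouse arrays with 3 per stage. Early cells (MOSE-E, labelled non-malignant) were taken at passages 13, 14 and 15, intermediate cells (MOSE-I, labelled intermediate) at passages 63, 71 and 73, and late cells (MOSE-L, labelled malignant) at passages 136, 142 and 143. All stages shared the same medium with serum and insulin, and no interferon, virus or other treatment was named for any of them. Because the stages follow each other in 1 cell series, malignancy and time in culture cannot be told apart, and p-values measure the spread between passages of that series only.

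Interferons are secreted proteins that bind paired receptors and activate JAK kinases. For type I interferon, Stat2 and Irf9 act as parts of ISGF3, a factor that binds the interferon-stimulated response element (ISRE) in promoters. Type II interferon acts mainly through the gamma-activated site (GAS). The genes switched on encode proteins that detect foreign RNA, block viral entry or replication, and feed back on the pathway itself, and a low level of the same genes is present in many resting epithelial cells.

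The letters of that element were searched in the promoters of the members. RefSeq windows of build GRCm38.p6, from 250 bases before the start of transcription to 50 bases after its first base, were matched for 29 of the 40 genes. A core of the ISRE, written GAAA, any 2 bases, GAAA and searched on both strands with overlaps allowed, was found in 16 of the 29 (55.2%), whereas 3.99% of all 27025 genes with such a window held it. The shorter core of the GAS, TTC, any 3 bases, GAA, was found in 8 of the 29 (27.6%) and in 9.55% of all genes. The windows below are shown because they hold that ISRE core upstream of the start in genes that rose in MOSE-L cells (Stat2, Ifit3, Oas1a, Igtp and Rsad2), in genes that were not called against MOSE-E cells (Irgm1, Bst2 and Cxcl10), and in genes of low or no reported signal (Ifit1 and Isg15). Each is given 5′ to 3′ in the direction of the gene, with the ISRE core or its reverse complement in capitals.
Stat2, chr10:128270256-128270305, plus strand: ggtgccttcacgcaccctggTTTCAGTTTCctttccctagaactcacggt
Ifit3, chr19:34583353-34583436, plus strand: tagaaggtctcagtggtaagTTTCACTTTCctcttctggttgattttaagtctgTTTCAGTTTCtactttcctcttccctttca
Oas1a, chr5:120907526-120907565, minus strand: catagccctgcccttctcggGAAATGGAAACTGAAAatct
Igtp, chr11:58199502-58199551, plus strand: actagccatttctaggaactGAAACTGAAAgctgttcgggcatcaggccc
Rsad2, chr12:26456543-26456592, minus strand: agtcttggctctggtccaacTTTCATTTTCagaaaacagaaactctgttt
Irgm1, chr11:48871421-48871470, minus strand: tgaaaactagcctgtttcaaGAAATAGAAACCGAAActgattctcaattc
Bst2, chr8:71537567-71537622, minus strand: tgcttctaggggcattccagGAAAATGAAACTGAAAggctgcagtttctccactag
Cxcl10, chr5:92349073-92349122, minus strand: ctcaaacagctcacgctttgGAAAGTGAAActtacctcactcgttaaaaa
Ifit1, chr19:34640765-34640833, plus strand: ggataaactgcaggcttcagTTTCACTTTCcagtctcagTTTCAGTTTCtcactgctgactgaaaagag
Isg15, chr4:156200855-156200916, minus strand: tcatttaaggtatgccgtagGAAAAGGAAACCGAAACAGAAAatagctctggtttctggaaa

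Isg15 held 3 overlapping cores, and Oas1a, Irgm1 and Bst2 held 2 each that shared a GAAA box. Ifit1 and Ifit3 carried 2 separate cores, both on the reverse strand. In Oas1a the capitals ended at base -5, counted back from the start of transcription, whereas in Stat2 they lay farther upstream, from base -222 to base -213. Ifih1, Ddx58, Eif2ak2 and Ifitm3 had their cores after the start. The core was found in 6 of the 10 matched genes that rose from MOSE-E to MOSE-L, in 6 of the 11 tested genes that were not called and in 4 of the 8 with low or no reported signal. These matches are a description of the letters in these windows only.

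**Figure D1:**
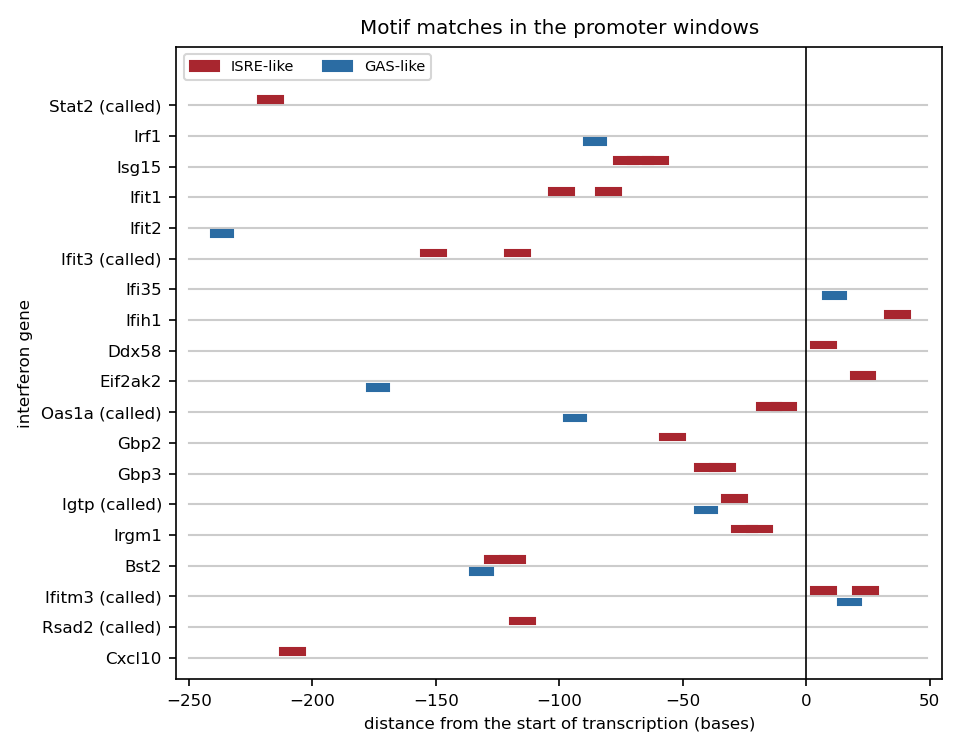
Positions of the ISRE-like core (red) and the GAS-like core (blue) in the promoter windows of the interferon genes with at least 1 match, with the distance from the start of transcription in bases on the horizontal axis. Genes marked as called rose from MOSE-E to MOSE-L, and they are found both among the genes with a core and, for Irf9, Oasl1, Oasl2 and Xaf1, among the genes without a match, which are not drawn.

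Some of the interferon genes, though not all, were higher in MOSE-L cells than in the earlier stages, and 1 of them was called between MOSE-E and MOSE-I. Between MOSE-E and MOSE-L, 13 of the 26 tested genes rose and 0 fell, led by Rtp4, Oasl2, Oas1a and Rsad2. Over all 7952 genes tested in the same way, 8.11% were called higher and 7.49% lower. Between MOSE-E and MOSE-I only Ifitm3 rose and 0 of the 26 fell, against 2.29% and 3.61% of all genes. Between MOSE-I and MOSE-L, 12 rose and 0 fell, against 7.38% and 6.04%. Calls came from a limma fit across all probe sets past the filter and needed a Benjamini-Hochberg adjusted p no higher than 0.05 with a log2 change in signal plus 50 no smaller than 1. For the counts of 0, limma gave 0 genes lower in MOSE-L than in MOSE-E and 0 lower than in MOSE-I also at an unadjusted p under 0.05, and the methods' t-test gave 0 for both. Against MOSE-E, 1 gene was lower in MOSE-I by each test without adjustment, Ifi27 by limma and Irf9 by the methods' t-test.

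The filter bears on these counts, because 12 of the 26 tested genes reached 500 only on MOSE-L arrays and had to be higher there to be tested. Of the 13 genes that rose from MOSE-E, 10 were of that kind, Rtp4, Oasl2, Oas1a and Rsad2 among them, and so were 11 of the 12 that rose from MOSE-I. Of the 11 tested genes over 500 on a MOSE-E array, 2 rose from MOSE-E to MOSE-L and 1 from MOSE-I to MOSE-L. The share of all genes of either kind is not given here. With no filter all 38 measured genes were tested, and 15 were called higher in MOSE-L cells against MOSE-E, beside 3.89% of all 18193 genes. Of these 15 genes 12 were among the 13 above, while Igtp was no longer called (adjusted p = 0.0756). In that fit 12 rose from MOSE-I to MOSE-L (3.52% of all genes) and 1 from MOSE-E to MOSE-I (0.83%), and Ifih1 lost its call from MOSE-I to MOSE-L (adjusted p = 0.0672). Further, dimmer probe sets of Rtp4, Ly6e, Xaf1, Gbp2 and Cmpk2, none over 500, were not called in it, whereas that of Stat2 rose. The median log2 change of the 38 genes was 0.98 from MOSE-E to MOSE-L, 0.02 from MOSE-E to MOSE-I and 0.83 from MOSE-I to MOSE-L, beside 0.03, -0.00 and 0.03 over all genes. All 3 MOSE-L signals lay over all 3 MOSE-E signals in 22 of the 38 genes, and in 2910 of all 18193 genes. The opposite order was found in 0 of the 38 and in 2502 of all genes.

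**Figure D2:**
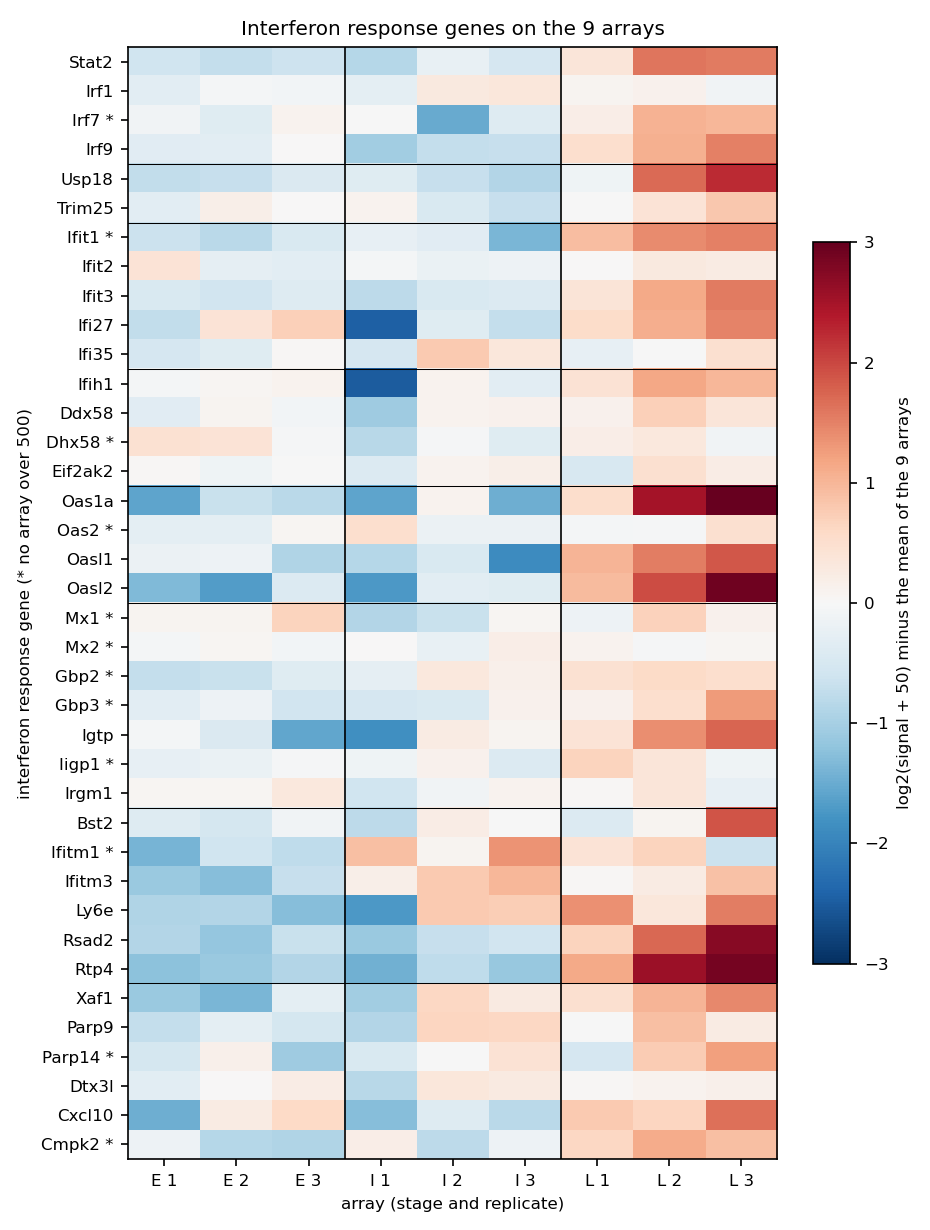
Signals of the 38 measured interferon genes (rows, grouped by role) on the 9 arrays (columns), as log2 of the signal plus 50 minus the mean of that gene over the 9 arrays. Red cells, above the mean of the gene, gather in the MOSE-L columns, most of all in replicates 2 and 3, and the MOSE-I replicate 1 column is the bluest.

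Among the transcription factors, Stat2 and Irf9 rose late. Stat2 (1450403_at) gave signals of 129, 115 and 127 on the MOSE-E arrays, 99.7, 182 and 143 on the MOSE-I arrays and 299, 772 and 747 on the MOSE-L arrays. Its early and intermediate signals overlapped, and all MOSE-L signals lay above both. Stat2 rose by 1.82 ± 0.37 (log2 change ± SE over 3 arrays per stage) from MOSE-E to MOSE-L with a limma adjusted p of 0.00601, and by 1.70 ± 0.37 from MOSE-I (adjusted p = 0.0107). Irf9 (1421322_a_at), the DNA-binding subunit, had signals of 188, 189 and 253 in MOSE-E, 95.4, 134 and 136 in MOSE-I and 373, 577 and 808 in MOSE-L cells. Its stages did not overlap, with the intermediate cells lowest. The rise of Irf9 from MOSE-E was 1.24 ± 0.31 (limma adjusted p = 0.0154) and from MOSE-I 1.84 ± 0.31 (adjusted p = 0.00356), and the change from MOSE-E to MOSE-I of -0.60 was not called (adjusted p = 0.219). With MOSE-L replicate 3 left out the Irf9 change from MOSE-E was 0.99 (adjusted p = 0.0615), and with MOSE-E replicate 2 left out it was 1.18 (adjusted p = 0.0599). Irf1, a factor that responds mainly to type II interferon, was not called in any comparison, and its log2 change from MOSE-E to MOSE-L was 0.18 (95% confidence interval -0.27 to 0.62). Irf7, the amplifier of type I interferon production, stayed under 500 everywhere. Its signals were 225, 443 and 428 in MOSE-L against 173, 134 and 207 in MOSE-E cells, without overlap. The fit with no filter did not call this change (0.87, limma adjusted p = 0.235).

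The ISG15 system attaches a small ubiquitin-like protein to other proteins. Usp18 (1418191_at), which removes ISG15 and dampens the type I receptor, gave 63.4, 67.0 and 89.4 in MOSE-E, 95.7, 67.6 and 52.1 in MOSE-I and 124, 564 and 835 in MOSE-L cells. One MOSE-L array, replicate 1, lay close to the earlier stages and the other two far above them. The log2 change of Usp18 from MOSE-E was 1.89 ± 0.568 (limma adjusted p = 0.0322). The call was lost without any single MOSE-E array and without MOSE-L replicate 2 or 3, with changes of 1.41 to 1.98 and adjusted p values from 0.0694 to 0.135. Against MOSE-I the change was 1.92 (adjusted p = 0.0316), and that call was lost without any single MOSE-I array and without MOSE-L replicate 2 or 3 (adjusted p values from 0.0577 to 0.138). Trim25, a ligase that attaches ubiquitin or ISG15, was not called in any comparison, with a change from MOSE-E to MOSE-L of 0.45 (95% confidence interval -0.14 to 1.03).

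Of the tested Ifit and Ifi genes, Ifit3 alone rose from MOSE-E to MOSE-L. Ifit3 (1449025_at) belongs to a family that binds viral RNA and holds back its translation. Its signals were 155, 138 and 166 in MOSE-E, 112, 156 and 162 in MOSE-I and 317, 565 and 783 in MOSE-L cells, the last clear of the others. The log2 change was 1.50 ± 0.333 (limma adjusted p = 0.00913) from MOSE-E and 1.58 ± 0.333 (adjusted p = 0.00942) from MOSE-I. Its near-identical copy Ifit3b may share the probe set. Ifi27 (1452956_a_at), a small interferon-induced membrane protein, followed another course, with 1335, 2976 and 3691 in MOSE-E, 373, 1736 and 1350 in MOSE-I and 3304, 4801 and 6428 in MOSE-L cells. Its lowest values were in MOSE-I cells and its early and late signals overlapped. Ifi27 rose by 2.21 ± 0.521 from MOSE-I to MOSE-L (limma adjusted p = 0.0141), while its change from MOSE-E to MOSE-I was -1.30 (adjusted p = 0.126) and that from MOSE-E to MOSE-L 0.92 (adjusted p = 0.213), neither of them called. A further probe set of Ifi27 gave the same calls. Ifit2, whose change from MOSE-E to MOSE-L was 0.24 (95% confidence interval -0.23 to 0.71), and Ifi35 were not called in any comparison. For Ifi35, 3 probe sets passed the filter, and 1 of them had the opposite sign from MOSE-E to MOSE-L (-0.77, adjusted p = 0.14) to the one used (0.35, adjusted p = 0.44). The signals of Ifit1, whose promoter with 2 cores is printed above, were 69.7, 56.3 and 86.4 in MOSE-E and 305, 444 and 479 in MOSE-L cells. Although under 500 on all 9 arrays, Ifit1 was called in the fit with no filter (1.91, limma adjusted p = 0.0057).

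Of the 3 RNA sensors tested, Ifih1 was called, and only between MOSE-I and MOSE-L. Ifih1 (1426276_at, Mda5), the sensor of long double-stranded RNA, had signals of 318, 350.3 and 365 in MOSE-E, 18.8, 364 and 259.8 in MOSE-I and 472, 814 and 721 in MOSE-L cells. The MOSE-L signals lay above all others, and 1 MOSE-I array lay far below the other two. Ifih1 rose by 1.77 ± 0.541 from MOSE-I to MOSE-L (limma adjusted p = 0.0355), and without MOSE-I replicate 1 the change was 0.97. This call was also lost when replicate 2 or 3 of MOSE-E or of MOSE-L, or replicate 3 of MOSE-I, was left out (adjusted p values from 0.0511 to 0.0918), with no filter and with an added value of 1 in place of 50 (adjusted p = 0.0599). Ddx58, the gene of the RIG-I sensor, and Eif2ak2, the gene of the kinase PKR that stops translation, were not called in any comparison, with changes from MOSE-E to MOSE-L of 0.51 (95% confidence interval -0.16 to 1.19) and 0.11 (-0.47 to 0.69). A dimmer probe set of Ddx58 (1456890_at) was called higher in MOSE-L than in MOSE-I with no filter (1.48, limma adjusted p = 0.028). Dhx58, the regulator of both helicases, stayed under 500 on its 3 probe sets, which did not move alike. The stages overlapped on the brightest (1420769_at), with 149.8, 143 and 92.9 in MOSE-E and 117, 132 and 85.1 in MOSE-L cells. On 1420768_a_at they did not overlap, with 5.56, 6.24 and 2.92 in MOSE-E, 46.8, 55.5 and 78.2 in MOSE-I and 92.9, 139 and 108 in MOSE-L cells, and the fit with no filter called it higher in MOSE-L than in MOSE-E (1.56, limma adjusted p = 0.00241).

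In the Oas family the 3 tested members were higher in MOSE-L cells, and each of them was over 500 on MOSE-L arrays only. These enzymes, or relatives of them, make the oligoadenylates that activate the antiviral nuclease RNase L. Oas1a (1424775_at) gave 25.7, 93.6 and 79.6 in MOSE-E, 25.7, 193 and 33.1 in MOSE-I and 276, 1231 and 1777 in MOSE-L cells. Most of its earlier signals were under 100, and every MOSE-L signal was above them. The rise of Oas1a from MOSE-E was 3.03 ± 0.66 (limma adjusted p = 0.00837), and its near-identical copy Oas1g may share the probe set. Oasl2 (1453196_a_at) had signals of 25.6, 9.0 and 92.0 in MOSE-E, 7.58, 103 and 96.9 in MOSE-I and 313, 680.3 and 1378 in MOSE-L cells. As for Oas1a, the late signals stood clear and spread widely among themselves. Oasl2 rose by 3.07 ± 0.612 from MOSE-E (limma adjusted p = 0.0054) and by 2.73 ± 0.612 from MOSE-I (adjusted p = 0.0119), the latter change falling to 2.24 (adjusted p = 0.0555) without MOSE-L replicate 3. Oasl1 (1424339_at), a relative that in mouse holds back the translation of Irf7, gave 231, 235 and 120.4 in MOSE-E, 126, 183 and 36.6 in MOSE-I and 599, 876 and 1107 in MOSE-L cells. The 3 late signals of Oasl1 were closer to each other than those of Oas1a and Oasl2. Its rise was 1.89 ± 0.399 from MOSE-E (limma adjusted p = 0.0072) and 2.54 ± 0.399 from MOSE-I (adjusted p = 0.00257). Oas2 stayed under 500, and its MOSE-L signals of 104, 105 and 172 overlapped those of both earlier stages (0.30 from MOSE-E with no filter, limma adjusted p = 0.67).

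Some of the interferon-induced GTPases attack the membranes around intracellular pathogens. Of the 7 GTPases listed, 5 stayed under 500 on every array. Igtp (1417141_at), one of the immunity-related GTPases, gave 194, 136 and 36.1 in MOSE-E, 20.8, 250.4 and 219 in MOSE-I and 285, 612 and 798 in MOSE-L cells. All MOSE-L signals were above the others, although replicate 1 only narrowly. The change of Igtp from MOSE-E was 1.86 ± 0.609 (limma adjusted p = 0.0443), and it was not called with no filter or with an added value of 1 (adjusted p = 0.0756 and 0.0854). Of the 9 arrays, leaving out any single replicate numbered 2 or 3, whatever its stage, ended the call, with changes of 1.43 to 1.98 and adjusted p values from 0.0507 to 0.159. Irgm1, a regulator of the same family whose promoter is printed above, was not called, with a change from MOSE-E to MOSE-L of -0.09 (95% confidence interval -0.58 to 0.41). Gbp2 signals were 37.5, 40.9 and 61.4 in MOSE-E, 69.6, 129 and 109 in MOSE-I and 146, 162 and 153 in MOSE-L cells. Its stages did not overlap, and the fit with no filter called Gbp2 higher in MOSE-L than in MOSE-E (1.08, limma adjusted p = 0.0328). Gbp3 also had MOSE-L signals (76.7, 113 and 229) clear of the MOSE-E signals (42.1, 53.1 and 27.3), whereas those of Iigp1 overlapped. The Gbp3 change was not called with no filter (0.99, limma adjusted p = 0.107). Mx1 and Mx2, of which Mx1 is defective in most laboratory strains, had no signal over 107 on any array.

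The membrane-associated members held the largest rise of the tested genes in log2 of the signal plus 50, that of Rtp4, and the only early one. Rtp4 (1418580_at), a receptor-transporting protein with antiviral activity, gave 75.8, 85.9 and 109 in MOSE-E, 57.2, 122 and 83.8 in MOSE-I and 592, 1687 and 2111 in MOSE-L cells. The early and intermediate signals were alike in range, and the lowest MOSE-L signal was several times the highest of them. Rtp4 rose by 3.27 ± 0.425 from MOSE-E (limma adjusted p = 0.000537) and by 3.31 ± 0.425 from MOSE-I (adjusted p = 0.000828), and its mean signal was 16.2 times that in MOSE-E cells. By this ratio of mean signals Oasl2 (18.7) and Oas1a (16.5) were ahead of Rtp4. Rsad2 (1436058_at), the gene of viperin, which makes a nucleotide that ends viral RNA chains, gave 122, 92.4 and 149 in MOSE-E, 96.0, 148 and 165 in MOSE-I and 452, 996 and 2048 in MOSE-L cells. Here too both earlier stages shared 1 range and the late signals spread above it. The rise of Rsad2 was 2.61 ± 0.444 from MOSE-E (limma adjusted p = 0.00247). Of its 3 probe sets past the filter, 1 missed the call in that comparison (1.82, adjusted p = 0.0702).

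Ifitm3 (1423754_at), a membrane protein that blocks the entry of many viruses, was high at every stage and rose early. Its signals were 5126, 4536 and 6849.7 in MOSE-E, 12474, 19081 and 22218 in MOSE-I and 11394, 13171 and 20507 in MOSE-L cells. The intermediate and late signals overlapped, and both lay above the early ones. Ifitm3 rose by 1.68 ± 0.28 from MOSE-E to MOSE-I (limma adjusted p = 0.00806) and by 1.42 ± 0.28 from MOSE-E to MOSE-L (adjusted p = 0.0052), with a change of -0.26 (95% confidence interval -0.88 to 0.36) from MOSE-I to MOSE-L. Without MOSE-E replicate 2 the change from MOSE-E to MOSE-I was 1.55 and missed the call (adjusted p = 0.0534). Ly6e (1453304_s_at), a lipid-anchored surface protein, gave 667, 670.4 and 501 in MOSE-E, 355, 2264 and 2168 in MOSE-I and 3396, 1650.2 and 3783 in MOSE-L cells. Of the MOSE-I arrays, 2 lay within the range of MOSE-L and replicate 1 below MOSE-E. The log2 change of Ly6e from MOSE-E to MOSE-L was 2.10 ± 0.573 (limma adjusted p = 0.0223), and it missed the call without MOSE-E replicate 2 or 3 or MOSE-L replicate 1 or 3 (adjusted p values from 0.0544 to 0.0783). Bst2, the gene of tetherin, which holds budding virions to the cell, had a wide late spread of 537, 769 and 2839.5 beside 547, 492 and 673 in MOSE-E cells. Its stages overlapped and its change of 0.86 was not called (adjusted p = 0.217). Ifitm1 stayed under 500, and its MOSE-I signals of 271, 132 and 388 lay above the MOSE-E signals of 15.9, 63.7 and 52.6. That change was not called with no filter (1.68, limma adjusted p = 0.0696).

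Of the remaining members, Xaf1 rose and Cxcl10 was called from MOSE-I only. Xaf1 (1443698_at), which binds and opposes the apoptosis inhibitor XIAP, gave 173, 135 and 342 in MOSE-E, 185, 691 and 534 in MOSE-I and 627, 927 and 1251 in MOSE-L cells. Its MOSE-L signals overlapped with 1 MOSE-I array and were clear of MOSE-E. Xaf1 rose by 1.91 ± 0.435 from MOSE-E (limma adjusted p = 0.0102), with 0.89 (adjusted p = 0.198) already between MOSE-E and MOSE-I, a step that was not called. Cxcl10 (1418930_at), a chemokine that draws activated T cells, gave 76.4, 359.9 and 473 in MOSE-E, 94.1, 218 and 149 in MOSE-I and 552, 495 and 1053 in MOSE-L cells. The late signals were above all others, but the MOSE-E signals were spread widely. Cxcl10 rose by 1.85 ± 0.502 from MOSE-I (limma adjusted p = 0.0232) and its change of 1.25 from MOSE-E was not called (adjusted p = 0.0885). The call against MOSE-I needed MOSE-L replicate 3 and both MOSE-I replicates 1 and 3, since leaving out any of them gave adjusted p values from 0.0634 to 0.083. Parp9 and Dtx3l, which form an ADP-ribosylating ubiquitin ligase, were not called, with changes of 0.88 (95% confidence interval 0.01 to 1.75) and 0.13 (-0.55 to 0.80) from MOSE-E to MOSE-L. Cmpk2, a mitochondrial nucleotide kinase, had signals of 43.3, 6.89 and 5.54 in MOSE-E and 110.3, 175 and 144 in MOSE-L cells and was called with no filter (1.52, limma adjusted p = 0.0152). Parp14 stayed under 500 with overlapping stages.

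**Figure D3:**
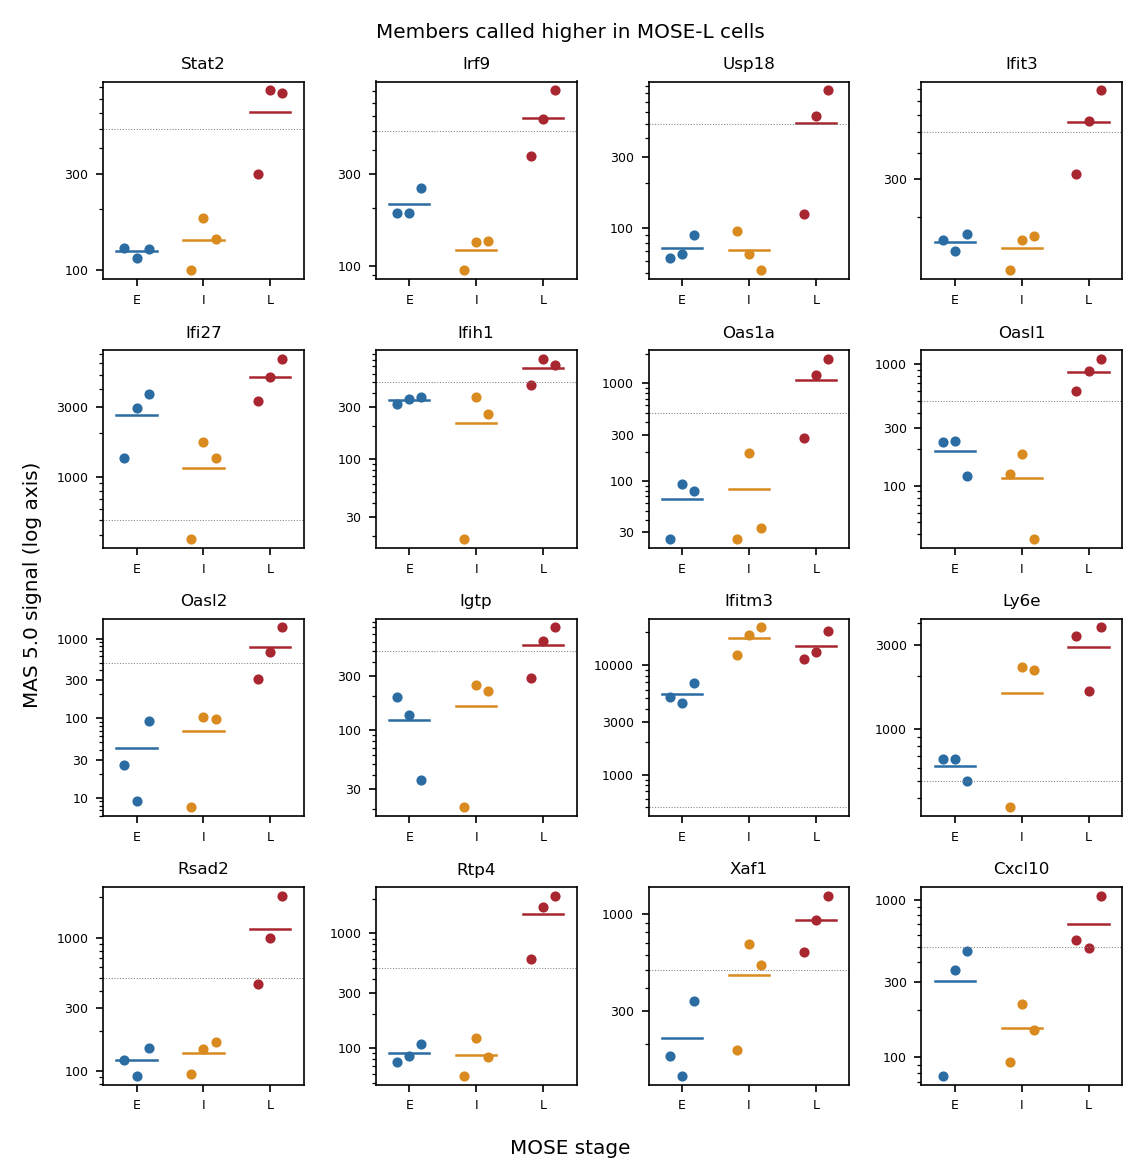
Signal of each of the 16 interferon genes called higher in MOSE-L cells than in MOSE-E or MOSE-I cells, on a log axis, with 1 point per array and a line at the mean of each stage (MOSE-E blue, MOSE-I orange, MOSE-L red), and a dotted line at 500. In most panels the 2 earlier stages share 1 range and the MOSE-L points stand above it with replicate 1, the leftmost, lowest, whereas Ifitm3 is already raised in MOSE-I cells.

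Set side by side, 9 genes were called in MOSE-L against both earlier stages (Stat2, Irf9, Usp18, Ifit3, Oas1a, Oasl1, Oasl2, Rsad2 and Rtp4). Igtp, Ifitm3, Ly6e and Xaf1 were called against MOSE-E only, and Ifi27, Ifih1 and Cxcl10 against MOSE-I only. These comparisons share the MOSE-L arrays, so the lists are not independent. The methods' t-test on the signals, with an unadjusted p of at most 0.05 and a fold over 2, gave 9 genes higher from MOSE-E to MOSE-L, 1 from MOSE-E to MOSE-I and 8 from MOSE-I to MOSE-L, against 6.41%, 3.07% and 5.17% of all tested genes. Usp18, Oas1a, Oasl2 and Rsad2, which limma called against both earlier stages, were missed by this t-test against both, even without adjustment. After Benjamini-Hochberg adjustment this test called 0 interferon genes in each comparison.

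**Figure D4:**
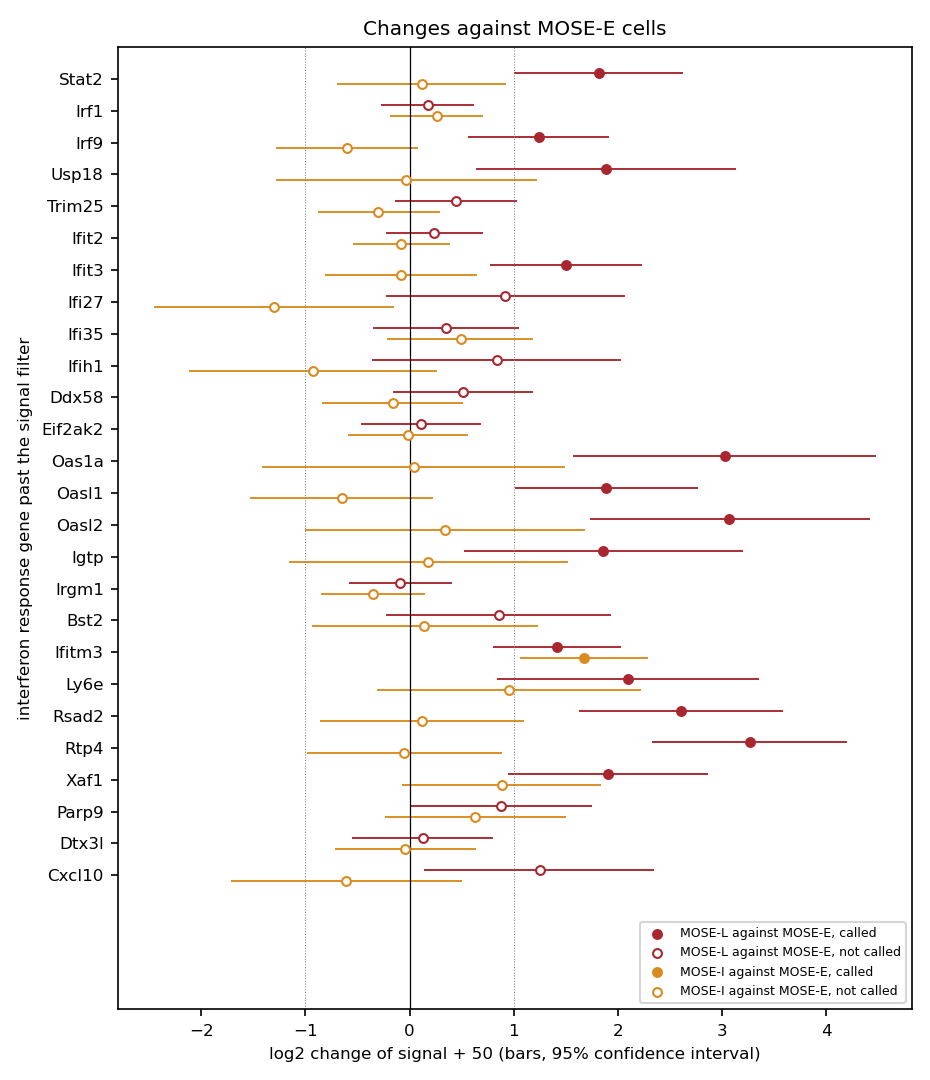
Log2 change of the signal plus 50 for the 26 tested interferon genes from MOSE-E to MOSE-L (red) and from MOSE-E to MOSE-I (orange), with 95% confidence intervals and filled points for called genes. The 13 filled red points lie between 1.24 and 3.27, while the orange points lie on both sides of 0 and only that of Ifitm3 is filled.

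The interferon genes also varied between arrays of the same stage. Relative to the mean of each gene over the 9 arrays, the median of the 38 genes was -0.36, -0.31 and -0.30 on the MOSE-E arrays, -0.80, -0.15 and -0.15 on the MOSE-I arrays and 0.29, 0.70 and 1.00 on the MOSE-L arrays. Over all genes these medians lay between -0.04 and 0.06. Of the 13 genes that rose from MOSE-E, 12 had their lowest late signal on MOSE-L replicate 1 (passage 136) and 12 their highest on replicate 3 (passage 143), 92.3% in each case. Over all 645 genes called higher, 40.9% were lowest on replicate 1 and 52.6% highest on replicate 3. The ratio of replicate 3 to replicate 1 had a median of 2.5 in these 13 genes, from 1.11 for Ly6e to 6.74 for Usp18, and a median of 1.28 in all 645. On replicate 1 the signals were 1.69 to 7.42 times the MOSE-E means of the same genes. Since these 13 genes were chosen for being higher in MOSE-L cells, that range is no separate support for the rise.

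Quality measures of the arrays were read beside this pattern. The ratio of the 3′ to the 5′ Actb control probe set, which rises as RNA is degraded or copied less fully, lay between 1.124 and 1.248 in MOSE-E, between 1.309 and 1.377 in MOSE-I and at 1.339, 1.447 and 1.831 in MOSE-L replicates 1, 2 and 3, whereas the Gapdh ratio was lowest on MOSE-L replicate 3 (0.727). MOSE-L replicate 3 correlated with the other late arrays at 0.889 and 0.907, MOSE-I replicate 1 with its own stage at 0.939 and 0.947, and MOSE-E replicate 1 at 0.951 and 0.955. When MOSE-L replicate 3 was left out, 9 interferon genes were called higher than in MOSE-E and 8 higher than in MOSE-I, and leaving out MOSE-E replicate 2 also left 9 above MOSE-E. When MOSE-I replicate 1 was left out, 4 genes rose from MOSE-E to MOSE-I, namely Ifitm3, Ly6e (1.78, limma adjusted p = 0.0157), Xaf1 (1.38, adjusted p = 0.0459) and Parp9 (1.14, adjusted p = 0.0373). The share of all genes called with these arrays left out is not given here, so the counts cannot be set beside it. Whether RNA quality had a part in the spread was not tested.

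**Figure D5:**
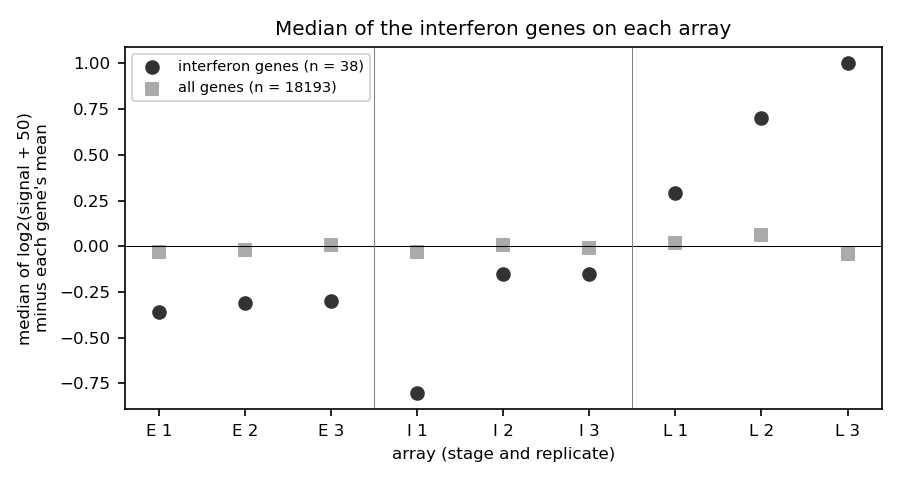
Median over the 38 interferon genes (circles) and over all 18193 genes (squares) of log2 of the signal plus 50 minus the mean of each gene, for each of the 9 arrays. The circles lie at 0.29, 0.70 and 1.00 on the MOSE-L arrays and below 0 on the other 6, with the lowest, -0.80, on MOSE-I replicate 1, while the squares stay between -0.04 and 0.06.

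Genes upstream of the response were read from lists of the pathway. Of the interferon ligands, 5 of 7 listed were measured (Ifnb1, Ifna1, Ifna2, Ifna4 and Ifng), and none reached a signal over 154 on any array. Of 11 tested receptor and signalling genes, 1 rose and 1 fell from MOSE-E to MOSE-L, close to the 8.11% and 7.49% called over all tested genes, with a median log2 change of 0.36 against 0.03. Socs3, a feedback inhibitor of JAK kinases that many cytokines induce, gave 764, 604 and 634 in MOSE-E, 2194, 4377 and 4001 in MOSE-I and 2146, 2165 and 1701 in MOSE-L cells. It was raised from the intermediate stage on, by 2.26 ± 0.255 from MOSE-E to MOSE-I (limma adjusted p = 0.00162) and 1.52 ± 0.255 from MOSE-E to MOSE-L (adjusted p = 0.00228). Ifngr2, a chain of the type II receptor, gave 781, 785 and 807 in MOSE-E, 660, 468 and 563 in MOSE-I and 413, 311 and 259 in MOSE-L cells. Ifngr2 fell by 1.18 ± 0.205 from MOSE-E to MOSE-L (limma adjusted p = 0.0028), and its stages did not overlap. Both chains of the type I receptor, Ifnar1 and Ifnar2, were tested and not called. Of 7 tested genes of nucleic acid sensing and interferon induction, 0 were called in any comparison, with a median change of 0.31 from MOSE-E to MOSE-L. At an unadjusted p under 0.05, limma gave 1 of these 7 higher and 0 lower in each of the 3 comparisons, and the methods' t-test after adjustment gave 0. The one with the highest signal, Tbk1, a kinase that activates Irf3, had a mean of 2311 at the early and 2906 at the late stage (0.31, adjusted p = 0.234).

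Further interferon-stimulated genes outside the 40 were mixed in direction. Of 27 tested, 6 rose and 2 fell from MOSE-E to MOSE-L, beside 8.11% and 7.49% of all genes, with a median log2 change of 0.62. Of these 6, only Tapbp also passed the signal filter on arrays of other stages. The others had to be higher on MOSE-L arrays to be tested. With no filter 7 of the 52 measured genes were called higher and 2 lower, beside 708 and 620 of all 18193 genes. Not all of the 6 kept their call in that fit. From MOSE-I to MOSE-L 3 rose and 0 fell, beside 7.38% and 6.04%. These 3 passed the filter on MOSE-L arrays only. At an unadjusted p under 0.05 limma gave 3 lower in that comparison, and the methods' t-test after adjustment gave 0. Ccl5, a chemokine, had signals of 10.7, 8.47 and 20 in MOSE-E, 19.2, 76.0 and 75.6 in MOSE-I and 259.9, 283 and 689 in MOSE-L cells, a change of 2.75 ± 0.571 from MOSE-E (limma adjusted p = 0.00659). Ccl2, another chemokine, moved the opposite way, with 841, 3838 and 7938 in MOSE-E, 867, 1794 and 1499 in MOSE-I and 281, 465 and 421 in MOSE-L cells, a change of -2.81 ± 0.622 (adjusted p = 0.00903). For antigen presentation, Tap2, a subunit of the peptide transporter, and Tapbp (tapasin) rose by 2.21 (adjusted p = 0.00832) and 1.92 (adjusted p = 0.00509). The Tap2 signals in MOSE-L cells, 378, 1259.7 and 1668, had replicate 1 lowest, as in 12 of the 13 interferon genes and in 40.9% of all 645 genes called higher. From MOSE-E to MOSE-I, where 2.29% of all genes rose, 2 genes of this list did so, Psmb10 (1.16, adjusted p = 0.0261) and Ifitm2 (1.07, adjusted p = 0.0365), named after their values were seen. Neither was called with no filter. Among 6 tested genes of RNA and DNA turnover and editing, Apobec3, a cytidine deaminase that restricts retroviruses, rose from MOSE-E to MOSE-L (1.42, adjusted p = 0.032), and Rnaseh2b, a subunit of a nuclease for RNA in hybrids with DNA, fell by 1.34 from MOSE-I to MOSE-L (adjusted p = 0.012). With no filter Apobec3 was not called, whereas Rnaseh2b was.

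Markers of other cells were read on the same arrays. Of 10 leukocyte markers 9 were measured, and their summed signal lay between 721 and 998 on the MOSE-E arrays, between 797 and 1364 on the MOSE-I arrays and between 1163 and 1195 on the MOSE-L arrays. Ptprc, the pan-leukocyte marker CD45, had no signal over 51.9 on any array, and only Csf1r exceeded 500, on 1 MOSE-I array. From the early to the late stage the mean signals of Ptprc (39.8 to 7.87), Csf1r and Cd3e went down. Those of the other measured leukocyte markers went up, among them Cd68 (131 to 265) and Laptm5 (186 to 304). In the fit with no filter 0 leukocyte markers were called in any comparison. The summed signal of 11 epithelial and mesothelial markers lay between 85152 and 87254 in MOSE-E, between 60572 and 82594 in MOSE-I and between 55889 and 72775 in MOSE-L cells. The keratins Krt8, Krt18 and Krt19 and the mesothelial genes Wt1 and Upk3b were over 500 on every array. Of the 9 tested, 4 fell from MOSE-E to MOSE-L, beside 7.49% of all genes. They were Krt8 (-1.47, limma adjusted p = 0.00538), Krt19 (-1.11, adjusted p = 0.0142), and Krt7 and Cdh1, which had no MOSE-L signal over 202. From MOSE-E to MOSE-I 3 fell, beside 3.61% of all genes, namely Krt7, Cdh1 and Msln (-2.41, adjusted p = 0.00362). From MOSE-I to MOSE-L Msln (1.90, adjusted p = 0.00421) and Wt1 (1.09, adjusted p = 0.0201) rose and Krt8 fell. The 5 endothelial markers had sums of 263 to 436 over the 9 arrays. The 5 granulosa and steroidogenic markers measured had sums between 479 and 534 in MOSE-E, between 456 and 650.1 in MOSE-I and between 994 and 1958 in MOSE-L cells. Star, a cholesterol carrier of steroid synthesis and the only one of them tested, gave 51.8, 45.2 and 9.88 in MOSE-E and 308, 254 and 1402 in MOSE-L cells. Its change was 2.70 (limma adjusted p = 0.0106), but it exceeded 500 on MOSE-L replicate 3 only. In the fit with no filter 0 of the granulosa and steroidogenic markers were called. The 5 stromal fibroblast markers had sums between 35196 and 79604 in MOSE-E, between 20374 and 61486 in MOSE-I and between 22623 and 32736 in MOSE-L cells. They went opposite ways, since the collagen genes Col1a1 and Col1a2 fell by 2.54 and 6.98 from MOSE-E to MOSE-L (limma adjusted p = 0.00172 and 2.59e-06) and Dcn, the gene of the matrix proteoglycan decorin, rose by 2.19 (adjusted p = 0.0101). In bulk RNA, fewer cells of a type and less RNA per cell cannot be told apart, and whether the make-up of the cultures had a part in the interferon genes was not tested.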

How the data were processed

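Biotinylated cRNA of 9 RNA samples was hybridised by the authors to Affymetrix mouse arrays. The deposited intensities are linear MicroArray Suite 5.0 signals per probe set, which the authors scaled to a trimmed mean of 500 on each array. Scaling by a trimmed mean hides any change in total RNA per cell. The median signal ran from 93.2 to 130.0 per array, and 32.4% of signals lay under 50. Detection calls and scan dates were not used here. With 3 arrays a stage, precision is limited.

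Probe sets were named through the platform annotation (34958 with 1 gene, 932 with several, 9211 with none), and 34754 were matched by gene ID to the RefSeq genes of GRCm38.p6. Signals were analysed as log2(signal + 50), which understates the change of low genes. The 64 controls were left out, and a probe set was kept if any of its 9 signals exceeded 500. All 9 arrays entered a single linear fit of stage means in limma 3.58.1 (R 4.3.3), with a variance trend and Benjamini-Hochberg adjustment, which was checked on simulated data. Where several kept probe sets named only 1 gene, the brightest on average stood for it. The methods' t-test on the signals was an alternative, as were other added values, normalizations and filters, a replicate block and leaving out each array.

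Full values are given for members called in any comparison, and the other members are summarised. From the pathway lists, called genes are named, up to 4 a list by the size of the change between MOSE-E and MOSE-L. The members and lists were chosen with earlier results of these data known. Promoter sequences come from RefSeq tables of GRCm38.p6.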

Additional observations from a re-analysis of the deposited data

How the results depend on the processing

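No member called in a comparison reversed its direction under any alternative. The number of interferon genes called higher from MOSE-E to MOSE-L, 13, was 8 with the adjusted p limited to 0.01 and 8 with a signal filter of 1000, where 16 members were tested. From MOSE-I to MOSE-L the 12 became 5 and 7 under the same settings. With the methods' t-test after Benjamini-Hochberg adjustment the number called higher was 0 in all 3 comparisons. Single arrays left out in turn gave 9 to 13 genes higher from MOSE-E to MOSE-L, 8 to 13 from MOSE-I to MOSE-L and 0 to 4 from MOSE-E to MOSE-I, where the 0 came without MOSE-E replicate 2 and the 4 without MOSE-I replicate 1. Added values of 1 and 200, quantile normalization, median centring, a variance without trend and a fit of only the groups compared gave 12 or 13 genes higher from MOSE-E to MOSE-L, and no filter gave 15. Apart from the fit with no filter, the share of all genes called under these alternatives and those below is not given here. The counts therefore describe the members only, and the causes of these differences were not tested.

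The arrays share a replicate number, and no pairing was named. The correlation of deviations ran from -0.113 to 0.41 between same-numbered arrays and from -0.493 to 0.241 between different-numbered ones. Same-numbered MOSE-E and MOSE-L arrays gave 0.41, 0.262 and 0.019. These values do not settle whether the arrays were paired. With the replicate number as a block, 13 genes were higher from MOSE-E to MOSE-L, Igtp lost its call (adjusted p = 0.0507), Cxcl10 gained one (1.25, adjusted p = 0.047), Xaf1 gained one from MOSE-I to MOSE-L (1.03, adjusted p = 0.0486), and 1 gene, Ifi27, was lower in MOSE-I than in MOSE-E (-1.30, adjusted p = 0.0243).

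An alternative chosen after seeing the data kept the 2 arrays of each stage that correlated best. It gave 10 genes higher from MOSE-E to MOSE-L, 6 from MOSE-I to MOSE-L, 4 from MOSE-E to MOSE-I (Ifitm3, Ly6e, Xaf1 and Parp9) and 2 lower from MOSE-E to MOSE-I (Ifi27 and Cxcl10). Stages cover 1 cell series with 3 passages each, and differences in genes with signals near or under 100 are limited by the noise of the low signals.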
